A study of Homo sapiens with 8 samples.

Results

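The genes described are the 5 butyrophilins BTN3A1, BTN3A2, BTN3A3, BTN2A1 and BTN2A2, which were measured in K562 cells after repression of IRF2. They were chosen by name, as chromosome 6 butyrophilins used in the activation of gamma-delta T cells, and the choice was made with results of these libraries known. The 5 genes are among 35805 listed and 14665 tested genes, and all 5 passed the filter on low values. Because of how they were chosen, their differences between IRF2-guide and control libraries are given as a description with no test. The tests of the 5 genes are of sg1-IRF2 against sg2-IRF2 and of sgAAVS1 against untransduced cells. Genes of other lists are also tested between IRF2-guide and control libraries. Those lists too were chosen with earlier results of these data known, which limits what their calls show.

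K562 is an established line of chronic myeloid leukaemia that expresses erythroid genes, and all cells in the series, controls included, carried dCas9-KRAB. In CRISPR interference this nuclease-dead Cas9 brings the KRAB repressor to the site of a guide RNA, so that transcription of the target is lowered and the gene is not cut. There were 8 libraries in 4 groups of 2, made from cells with the guide sg1-IRF2, cells with the guide sg2-IRF2, cells with the control guide sgAAVS1, which targets the AAVS1 safe-harbour site, and untransduced cells. RNA of cells with a guide was taken 7 days after transduction. The labels give neither the clonality of the line nor the cultures behind the 2 libraries of a group.

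Butyrophilins are membrane proteins of the immunoglobulin superfamily, related to the B7 costimulatory molecules. The main gamma-delta T cell subset of human blood recognises tumour or infected cells that accumulate phosphoantigens, small phosphorylated intermediates of isoprenoid synthesis. BTN3A1 binds the phosphoantigen with its intracellular domain, and BTN2A1, which contacts the gamma chain of the receptor directly, acts with it at the cell surface. BTN3A2 lacks the phosphoantigen-binding intracellular domain and helps BTN3A1 reach the surface, BTN3A3 carries a related domain that does not bind phosphoantigen, and BTN2A2 is known as an inhibitor of T cell activation.

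The genes lie within 1 cluster on the plus strand of chromosome 6 (hg38, band 6p22), where all are annotated as protein coding. From the telomeric side the deposited spans are BTN3A2 at chr6:26365159-26378320, BTN2A2 at chr6:26383096-26394874, BTN3A1 at chr6:26402237-26415216, BTN3A3 at chr6:26440472-26453415 and BTN2A1 at chr6:26457904-26476621. These spans are those of GENCODE release 29, and no other gene of that release overlaps any of them. Members of a pair resemble each other in sequence. Of the 50-base windows of the annotated transcripts, 14.7% in BTN3A3, 12.7% in BTN3A2, 7.22% in BTN3A1, 3.92% in BTN2A1 and 2.20% in BTN2A2 also occur in another of the 5 genes. No window was shared between a BTN3A and a BTN2A gene. Reads within shared windows are not assigned to 1 member with certainty.

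Promoter sequence is shown for the members with an entry among RefSeq promoters (GRCh38.p14), which are BTN3A2, BTN3A3 and BTN2A1. Each line is the 130 bases of the plus strand just before the RefSeq start of its window, 5′ to 3′. Distances from the start are counted from this RefSeq start, which lies downstream of the first base of the deposited span. Capitals mark matches to the core of the motif bound by interferon regulatory factors (AANNGAAA), and to the X1 core (AGCAAC) and Y box (CCAAT) of MHC-type promoters, all searched on both strands. A minus-strand match reads as its reverse complement.
BTN3A2 (chr6:26365068-26365197): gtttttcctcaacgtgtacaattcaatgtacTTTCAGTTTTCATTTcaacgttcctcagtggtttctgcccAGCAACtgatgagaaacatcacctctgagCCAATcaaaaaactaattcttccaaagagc
BTN3A3 (chr6:26440374-26440503): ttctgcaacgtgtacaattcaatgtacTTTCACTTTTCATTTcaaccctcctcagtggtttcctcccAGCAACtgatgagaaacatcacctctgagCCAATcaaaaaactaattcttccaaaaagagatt
BTN2A1 (chr6:26457825-26457954): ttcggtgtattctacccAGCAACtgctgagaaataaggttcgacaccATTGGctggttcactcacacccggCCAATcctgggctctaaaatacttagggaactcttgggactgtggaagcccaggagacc

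The promoters of BTN3A2 and BTN3A3 are close relatives. Their aligned 300-base windows were identical at 82.3% of columns, against 43.6% between BTN3A2 and BTN2A1 and 47.8% between BTN3A3 and BTN2A1. Both carry a pair of minus-strand IRF core matches that share 1 base, the first of which begins 99 bases before the start in BTN3A2 and 103 bases before it in BTN3A3. Outside the printed stretches the same windows hold further IRF core matches, which begin 39 bases after the start in BTN3A2 and 35 and 41 bases after it in BTN3A3. Between these first matches there is 1 substitution, G6C, with positions counted from 1 at the left end of the match as printed, the BTN3A2 base first. In BTN2A1 the printed stretch holds no IRF core match, and the 300-base window holds 1 that begins 188 bases before the start and 1 that begins 3 bases after it. The 300-base windows that hold the printed stretches all carry the X1 core followed by a Y box. BTN3A2 has a second listed promoter window, chr6:26367928-26368227, which holds none of the motifs searched. An IRF core match occurs in 22.8% of the 35116 promoter windows of all genes, the X1 core in 12.8%, a Y box in 34.6%, and both of these in 4.87%. The longer interferon-stimulated response element (ISRE), searched as GAAA, any 2 bases and GAAA, contains the IRF core and occurs in 3.57% of windows. It was found in BTN3A3, beginning 35 bases after the start. The X1 and Y motifs were picked after these sequences had been seen. A match describes letters and is not evidence of binding.

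Reads recovered over the listed genes ran from 5248359 to 6738348 a library, both extremes being sgAAVS1 libraries. Reads of the replicates differed by less than counting noise with sg1-IRF2, sg2-IRF2 and in untransduced cells (chi-square per degree of freedom 0.788, 0.672 and 0.828, where counting noise alone gives 1), and by more than that with sgAAVS1 (1.64). P-values thus measure the spread between libraries, which may be technical. IRF2 itself had 4 and 8 reads for sg1-IRF2 and 22 and 21 for sg2-IRF2, against 196 and 291 with sgAAVS1 and 271 and 268 in untransduced cells. All 12 erythroid markers were detected in every group. Summed reads a library were 5509 to 6648 for the erythroid list and 4793 to 5610 for 8 markers of adherent epithelial or mesenchymal lines. For 9 myeloid markers they were 721 to 992, and for 7 megakaryocyte markers 516 to 666. The marker lists thus do not identify the cell type by themselves. The T cell genes CD2 and CD8A, the cytotoxic cell gene GNLY and the B cell gene MS4A1 were at 0 reads in all 8 libraries, and 5 of 14 lymphoid markers were at 0 in each guide group, sgAAVS1 included, against 6 of 14 in untransduced cells. Summed reads of the lymphoid list were 750 to 916 with the IRF2 guides, 702 to 968 with sgAAVS1 and 896 to 918 in untransduced cells, with CD3D and PTPRC making up most.

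BTN3A1 and BTN3A2 were lower with both IRF2 guides than in every control library, while BTN3A3, BTN2A1 and BTN2A2 overlapped the controls. BTN3A1, the phosphoantigen sensor, was 2.45-fold lower than with sgAAVS1 and 2.40-fold lower than in untransduced cells. BTN3A2, its partner without the intracellular domain, was 3.01-fold lower than with sgAAVS1 and 2.19-fold lower than in untransduced cells. The BTN2A genes, which had the most reads of the 5, differed from sgAAVS1 by under 0.1 on the log2 scale. Against untransduced cells the difference was -0.12 ± 0.05 (SE) for BTN2A2 and -8e-04 ± 0.06 for BTN2A1. In bulk RNA, fewer cells with a transcript and less of it per cell cannot be told apart.

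**Figure D1:**
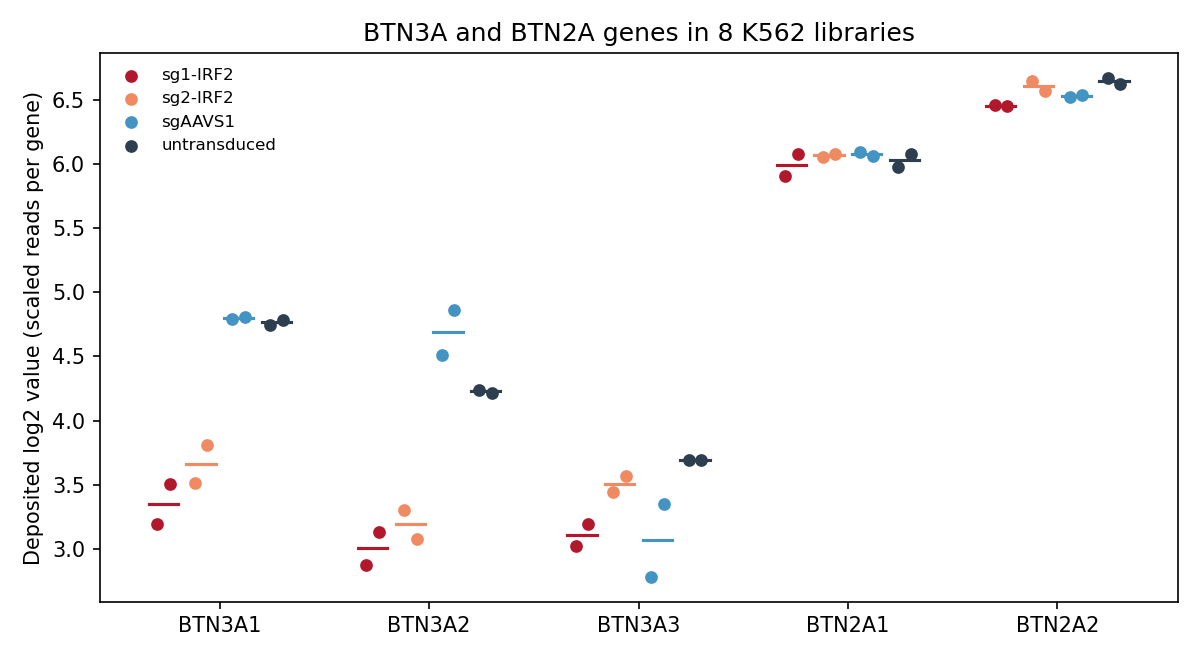
Deposited log2 value (scaled reads per gene, vertical axis) of each butyrophilin gene in the 8 libraries. Points are libraries, coloured by group, and horizontal lines are means of 2. BTN3A1 and BTN3A2 sit between 2.87 and 3.81 in the 4 IRF2-guide libraries and between 4.21 and 4.86 in the 4 control libraries.

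BTN3A1 had deposited log2 values of 3.20 and 3.51 for sg1-IRF2 and 3.51 and 3.81 for sg2-IRF2, against 4.79 and 4.81 with sgAAVS1 and 4.75 and 4.79 in untransduced cells. Reads were 45 and 61 for sg1-IRF2 and 67 and 78 for sg2-IRF2, against 125 and 165 with sgAAVS1 and 152 and 152 in untransduced cells. The 4 IRF2-guide libraries lay below all 4 controls, and the control libraries spanned 4.75 to 4.81. The difference from sgAAVS1 was -1.29 ± 0.12 (SE) for the mean of the IRF2 guides, -1.45 ± 0.14 for sg1-IRF2 and -1.14 ± 0.14 for sg2-IRF2. From untransduced cells it was -1.26 ± 0.12. Without any 1 library the difference of the mean of the guides from sgAAVS1 stayed between -1.37 and -1.22.

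BTN3A2 had log2 values of 2.87 and 3.13 for sg1-IRF2 and 3.30 and 3.08 for sg2-IRF2, against 4.51 and 4.86 with sgAAVS1 and 4.24 and 4.21 in untransduced cells. Reads were 36 and 47 for sg1-IRF2 and 58 and 47 for sg2-IRF2, against 103 and 171 with sgAAVS1 and 107 and 102 in untransduced cells. All IRF2-guide libraries again lay below all controls, but the sgAAVS1 libraries also lay above the untransduced ones. The difference was therefore larger against sgAAVS1 (-1.59 ± 0.14, SE) than against untransduced cells (-1.13 ± 0.14). By guide it was -1.68 ± 0.16 for sg1-IRF2 and -1.50 ± 0.16 for sg2-IRF2 against sgAAVS1, and -1.22 ± 0.16 and -1.03 ± 0.16 for these guides against untransduced cells.

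BTN3A3, the member with the fewest reads in untransduced cells, did not share this pattern. Its log2 values were 3.03 and 3.19 for sg1-IRF2 and 3.44 and 3.57 for sg2-IRF2, against 2.78 and 3.35 with sgAAVS1 and 3.69 and 3.69 in untransduced cells. Reads were 40 and 49 for sg1-IRF2 and 64 and 66 for sg2-IRF2, against 31 and 60 with sgAAVS1 and 73 and 71 in untransduced cells. The sgAAVS1 libraries held the lowest value of the gene, and the sign of its difference depended on the control: 0.24 ± 0.16 (SE) against sgAAVS1 and -0.38 ± 0.16 against untransduced cells. Without sgAAVS1 replicate 1, the library with 31 reads, the first of these was -0.04 ± 0.19, and without sgAAVS1 replicate 2 it was 0.53 ± 0.19.

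BTN2A1, the partner that contacts the gamma-delta receptor, varied little. It had log2 values of 5.90 and 6.08 for sg1-IRF2 and 6.06 and 6.08 for sg2-IRF2, against 6.09 and 6.06 with sgAAVS1 and 5.98 and 6.08 in untransduced cells. Reads were 294 and 362 for sg1-IRF2 and 391 and 375 for sg2-IRF2, against 308 and 393 with sgAAVS1 and 357 and 372 in untransduced cells. The groups overlapped, and the mean of the IRF2 guides differed by -0.05 ± 0.06 (SE) from sgAAVS1 and by -8e-04 ± 0.06 from untransduced cells.

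BTN2A2, the inhibitory relative, had log2 values of 6.46 and 6.45 for sg1-IRF2 and 6.65 and 6.57 for sg2-IRF2, against 6.52 and 6.54 with sgAAVS1 and 6.67 and 6.62 in untransduced cells. Reads were 431 and 468 for sg1-IRF2 and 590 and 528 for sg2-IRF2, against 415 and 546 with sgAAVS1 and 576 and 543 in untransduced cells. Here the sg1-IRF2 libraries were the lowest, the sgAAVS1 libraries next, and sg2-IRF2 and untransduced libraries overlapped. The mean of the IRF2 guides differed by 4e-04 ± 0.05 (SE) from sgAAVS1 and by -0.12 ± 0.05 from untransduced cells.

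**Figure D2:**
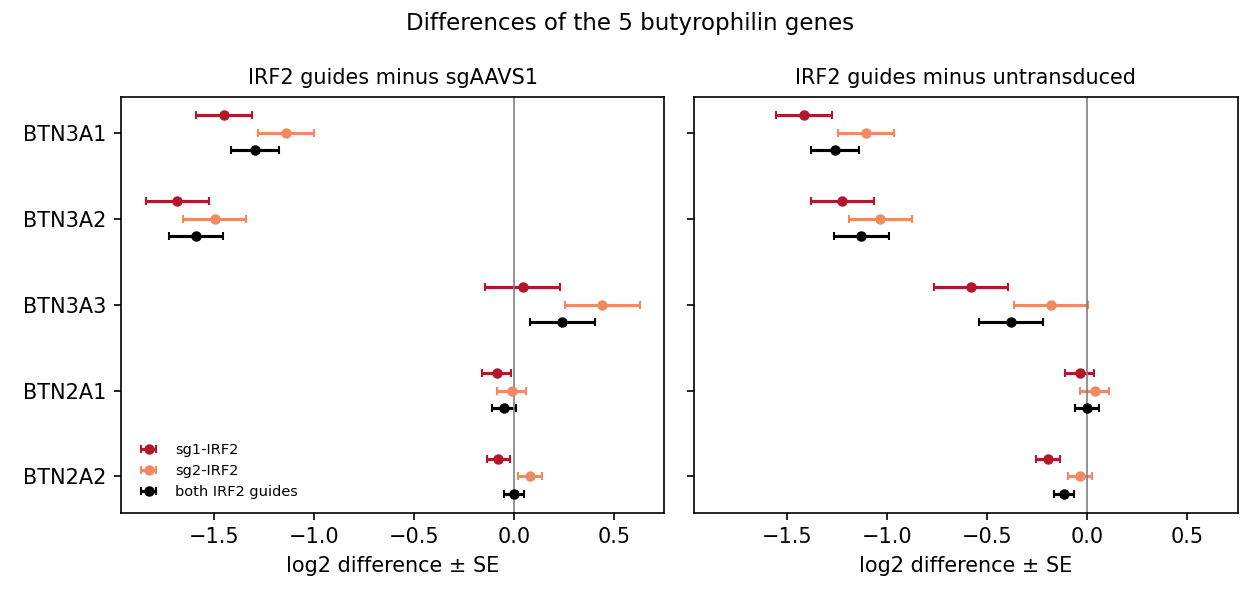
Log2 difference of each butyrophilin gene from sgAAVS1 (left) and from untransduced cells (right), for sg1-IRF2, sg2-IRF2 and the mean of both guides; bars are the standard error of the linear model. BTN3A1 and BTN3A2 lie between -1.68 and -1.03 in both panels, and the BTN2A genes lie between -0.20 and 0.08. The lowest of these is BTN2A2 for sg1-IRF2 against untransduced cells.

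In all, 2 of the 5 genes, BTN3A1 and BTN3A2, had the 4 IRF2-guide libraries below both sgAAVS1 libraries, and 0 had them above. Over all tested genes, 5.92% lay below and 5.81% above in this way. The same 2 genes lay below all 4 control libraries, as did 1.79% of tested genes, while 0.948% lay above and none of the 5 did. Since the genes were chosen with these values known, nothing is read from the counts. Among the 14665 tested genes BTN3A2 had the 27th and BTN3A1 the 39th lowest difference from sgAAVS1. Against untransduced cells BTN3A1 was the 42nd and BTN3A2 the 56th. The median difference from sgAAVS1 was -0.05 for the 5 genes and -0.02 for all tested genes.

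The make-up of the BTN3A reads differed between IRF2-guide and control libraries. BTN3A3 held 33.1% (95% interval 24.8 to 42.2%) and 31.2% (24.1 to 39.1%) of the BTN3A reads for sg1-IRF2. For sg2-IRF2 it held 33.9% (27.2 to 41.1%) and 34.6% (27.8 to 41.8%). With sgAAVS1 it held 11.97% (8.28 to 16.6%) and 15.2% (11.8 to 19.1%). In untransduced cells it held 21.99% (17.65 to 26.8%) and 21.8% (17.5 to 26.7%), intervals that overlap those of sg1-IRF2. Intervals are exact (Clopper-Pearson) and cover counting error only. The 4 IRF2-guide libraries lay within 31.2 to 34.6%, above every control library, and the untransduced libraries lay above the sgAAVS1 libraries. BTN3A2 held 24.6 to 30.7% with the IRF2 guides, 39.8 and 43.2% with sgAAVS1 and 32.2 and 31.4% in untransduced cells. Per exonic base the share of BTN3A3 was 32.9 to 36.0% with the IRF2 guides, 12.8 and 16.4% with sgAAVS1 and 23.2 and 23.1% in untransduced cells, so length did not alter the order.

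**Figure D3:**
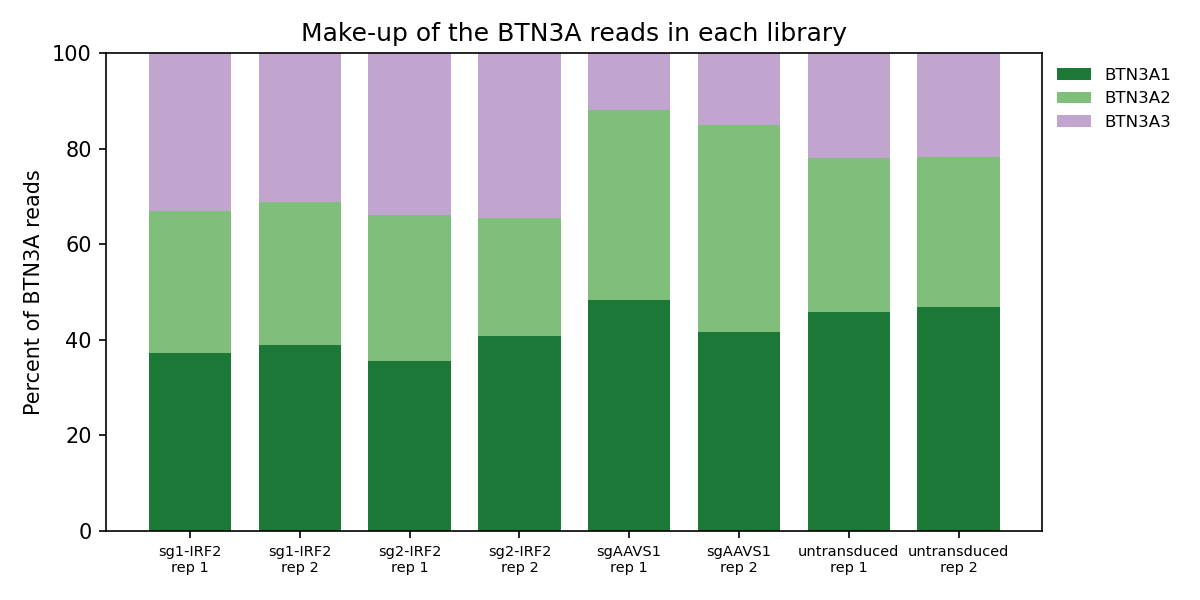
Share of each BTN3A gene (percent of the reads of the 3 genes, stacked to 100) in each of the 8 libraries. The top segment, BTN3A3, is widest in the 4 IRF2-guide libraries, at 31.2 to 34.6%, and narrowest with sgAAVS1, at 11.97 and 15.2%.

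Ratios within a library, which do not depend on its scaling, gave the same picture for BTN3A1 and its receptor-contacting partner. For each 100 BTN2A1 reads there were 15.3 and 16.9 BTN3A1 reads for sg1-IRF2 and 17.1 and 20.8 for sg2-IRF2, against 40.6 and 42.0 with sgAAVS1 and 42.6 and 40.9 in untransduced cells. BTN3A reads made up 14.3 and 15.9% of the reads of the 5 genes for sg1-IRF2 and 16.2 and 17.5% for sg2-IRF2, against 26.4 and 29.7% with sgAAVS1 and 26.2 and 26.2% in untransduced cells. Such a ratio shows that the genes moved unequally and does not say which of them moved.

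Levels can be set against each other only per length. On the linear deposited scale per kilobase of annotated exon, BTN2A1 stood at 17.3 ± 0.84 (SD, n = 2) in untransduced cells, BTN2A2 at 15.7 ± 0.35, BTN3A1 at 4.91 ± 0.095, BTN3A2 at 2.66 ± 0.039 and BTN3A3 at 2.28 ± 7e-04. The order of the levels was the same with sgAAVS1, where BTN3A2 (3.69 ± 0.63) and BTN3A3 (1.51 ± 0.42) had the widest spread. With sg1-IRF2 the BTN3A levels were 1.85 ± 0.28 for BTN3A1, 1.53 ± 0.12 for BTN3A3 and 1.14 ± 0.14 for BTN3A2, and with sg2-IRF2 they were 2.29 ± 0.34 for BTN3A1, 2.01 ± 0.12 for BTN3A3 and 1.30 ± 0.14 for BTN3A2. BTN3A3 thus stood above BTN3A2 in both IRF2-guide groups. With sg2-IRF2, BTN3A1 and BTN3A3 did not differ beyond their spread. Exonic length counts every annotated exon, so a gene that uses few of its exons has its level understated.

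The IRF2 guides were compared with each other by the limma moderated test, adjusted over all genes by Benjamini-Hochberg. None of the 5 genes was called between sg1-IRF2 and sg2-IRF2, while 0.634% of tested genes were called lower and 12.7% higher. At an unadjusted p under 0.05 there were 3 of the 5 genes and 31.4% of all tested genes. All 5 differences were negative, as were those of 18.5% of all tested genes. BTN3A1 differed by -0.31 ± 0.14 (SE, adjusted p = 0.128), BTN3A2 by -0.19 ± 0.16 (adjusted p = 0.42), BTN3A3 by -0.40 ± 0.19 (adjusted p = 0.143) and BTN2A1 by -0.08 ± 0.07 (adjusted p = 0.481), all by limma. BTN2A2 differed by -0.16 ± 0.06 (limma, adjusted p = 0.0701).

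The median of all genes in this comparison was 0.11, and the cause of this was not tested. Relative to that median, with library medians aligned, 145 genes were lower and 86 higher. On the deposited scale 93 were lower and 1859 higher. BTN2A2 was then called, at -0.27 ± 0.06 (limma, adjusted p = 0.0163), and voom on recovered reads also called it and none of the other 4 (-0.27, adjusted p = 0.0154). Over all alternatives its adjusted p ran from 0.0124 to 0.418. The BTN2A2 reads for each 100 BTN2A1 reads were 147 and 129 with sg1-IRF2 against 151 and 141 with sg2-IRF2, and these overlap.

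The control guide was then compared with untransduced cells, where 1.79% of tested genes were called lower and 2.97% higher. None of the 5 genes was called by limma and 2, BTN3A2 and BTN3A3, had an unadjusted p under 0.05, as did 19% of all tested genes. BTN3A2 was higher with sgAAVS1 by 0.46 ± 0.16 (SE, adjusted p = 0.0929), and BTN3A3 differed by -0.62 ± 0.19 (adjusted p = 0.0509), both by limma. Voom on recovered reads called BTN3A2 (0.46, adjusted p = 0.0407), and the adjusted p of BTN3A2 ran from 0.0219 to 0.387 over all alternatives. That of BTN3A3 ran from 0.00316 to 0.39. These values turn on single sgAAVS1 libraries: without sgAAVS1 replicate 1 BTN3A2 differed by 0.64 and BTN3A3 by -0.34, and without sgAAVS1 replicate 2 they differed by 0.29 and -0.91. BTN3A1 differed by 0.03 ± 0.14 (limma, adjusted p = 0.939), BTN2A1 by 0.05 ± 0.07 (adjusted p = 0.776) and BTN2A2 by -0.12 ± 0.06 (adjusted p = 0.282). This comparison uses the sgAAVS1 libraries that also serve as control for the IRF2 guides.

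The genes around the butyrophilin cluster were close to sgAAVS1 levels with the IRF2 guides. Within 500 kb of the cluster 32 other genes were tested, most of them histone genes, and their median difference from sgAAVS1 was 0.01. By limma 1 was lower and none higher, beside 1.1% of all tested genes lower and 0.491% higher, and 10.6% at an unadjusted p under 0.05. The lower gene was TRIM38, a ubiquitin ligase of innate immune signalling, at -0.22 ± 0.05 (SE, adjusted p = 0.0278), with 427 to 499 reads with the IRF2 guides, 461 to 585 with sgAAVS1 and 544 to 554 in untransduced cells. TRIM38 overlaps the antisense gene U91328.2, and its call was lost against untransduced cells (-0.18, adjusted p = 0.065), against all 4 controls (0.0514), without the mean-variance trend (0.262) and without sg1-IRF2 replicate 1 (0.157), sg2-IRF2 replicate 1 or 2 (0.0821 and 0.139) or sgAAVS1 replicate 1 (0.073), all by limma. HFE, the iron-sensing MHC relative, had -0.48 ± 0.34 (limma, adjusted p = 0.685) on 7 to 26 reads a library, and the testis linker histone gene HIST1H1T had -0.35 ± 0.25 (limma, adjusted p = 0.684). ABT1, an activator of basal transcription, had -0.06 ± 0.06 (limma, adjusted p = 0.778). Against untransduced cells the histone gene HIST1H2BF was higher by 0.26 ± 0.07 (limma, adjusted p = 0.0461). From sgAAVS1 it differed by 0.01 ± 0.07 (limma, adjusted p = 0.972). With sgAAVS1 it was already 0.25 ± 0.08 above untransduced cells (limma, adjusted p = 0.0809). Reads of histone genes, which resemble each other, are not assigned with certainty.

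**Figure D4:**
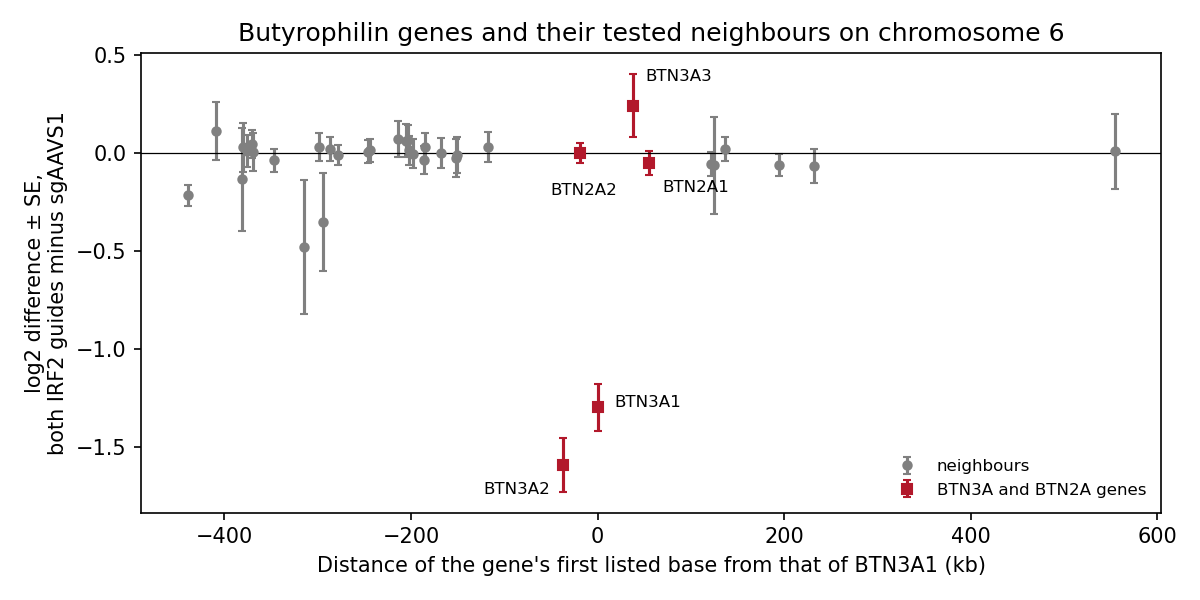
Log2 difference, both IRF2 guides minus sgAAVS1, of the 5 butyrophilin genes (squares) and their 32 tested neighbours (circles) by distance in kb from BTN3A1 along chromosome 6; bars are standard errors. BTN3A2 and BTN3A1 lie at -1.59 and -1.29, with BTN2A2 between them at 0, and the neighbours lie between -0.48 and 0.11.

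Other butyrophilin and B7 family genes were mostly silent in these cells. Of 15 such genes 13 were listed and 4 tested, and none was called by limma or voom, with 0 at an unadjusted p under 0.05. ERMAP, an erythroid butyrophilin-like protein, had -0.05 ± 0.05, BTNL9 had -0.03 ± 0.06, the B7 family member CD276 had 0.09 ± 0.12 and the costimulatory ligand ICOSLG had 0.00 ± 0.34, with adjusted p from 0.802 to 0.998 (limma). ICOSLG had only 9 to 14 reads a library, so its difference is uncertain. A second listed entry of ICOSLG, with 32 reads in the 8 libraries together, was not tested. BTN1A1, the milk-fat butyrophilin at the end of the cluster, had 8 reads in all 8 libraries together.

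Genes of the pathway that yields phosphoantigens were measured as well, since these metabolites are what BTN3A1 binds. The list spans the whole pathway and is not limited to the steps that make phosphoantigens. Of 11 tested genes of mevalonate and isoprenoid synthesis none was called by limma or voom, with 1 at an unadjusted p under 0.05, and the median was -0.05 against -0.02 for all tested genes. That gene was HMGCS1, the synthase that feeds the pathway, at -0.14 ± 0.04 (SE, limma adjusted p = 0.164). ACAT2, the thiolase of the first step, had -0.10 ± 0.05, the mevalonate kinase gene MVK had -0.10 ± 0.06 and GGPS1, a prenyl synthase, had -0.08 ± 0.05, with limma adjusted p from 0.544 to 0.666. Of 8 tested genes whose products act with butyrophilins at the membrane or in adhesion, none was called by limma or voom, with 1 at an unadjusted p under 0.05, and the median was -0.07. This was PVR, an adhesion molecule and poliovirus receptor, at -0.17 ± 0.06 (limma, adjusted p = 0.234). PVR also differed between the guides, by 0.35 ± 0.07 for sg1-IRF2 minus sg2-IRF2 (limma, adjusted p = 0.00255). RHOB, a small GTPase linked to BTN3A1 in phosphoantigen sensing, had 0.29 ± 0.17 (limma, adjusted p = 0.595) on 41 to 52 reads with the IRF2 guides, against 33 and 38 with sgAAVS1 and 53 to 66 in untransduced cells. The adhesion ligand CD58 had -0.12 ± 0.08 and the microtubule protein MAP4 -0.04 ± 0.04 (limma, adjusted p = 0.644 and 0.739).

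Among 17 tested transcription factors of interferon, MHC and butyrophilin promoters none was called against sgAAVS1 by limma or voom, with 4 at an unadjusted p under 0.05, and the median was -0.01. RUNX1, a blood cell factor, had -0.14 ± 0.04 (SE) against sgAAVS1 and 0.14 ± 0.04 against untransduced cells (limma, adjusted p = 0.115 and 0.0783). It also differed between the guides, by 0.29 ± 0.05 for sg1-IRF2 minus sg2-IRF2 (limma, adjusted p = 0.00083). RFX5, the X-box binding factor, had -0.18 ± 0.06 (limma, adjusted p = 0.178), and STAT2 had 0.10 ± 0.04 (limma, adjusted p = 0.428). NLRC5, the MHC class I transactivator, had 9 reads in the 8 libraries together and its class II relative CIITA had 16.

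Other ligands of gamma-delta T cells gave 1 lower gene of 8 tested by limma, with a median of -0.05. This was MR1, an MHC-like molecule that presents vitamin B metabolites, at -0.32 ± 0.07 (SE, adjusted p = 0.0211). It had 191 to 237 reads with the IRF2 guides, 214 and 316 with sgAAVS1 and 264 and 271 in untransduced cells. The call of MR1 was lost against untransduced cells (-0.25, adjusted p = 0.0839), against all 4 controls (0.0539), without the mean-variance trend (0.295) and without sg1-IRF2 replicate 2 (0.0557), sg2-IRF2 replicate 2 (0.139) or sgAAVS1 replicate 2 (0.167), all by limma. For sg1-IRF2 minus sg2-IRF2, MR1 had 0.30 ± 0.09 and the stress ligand ULBP1 had 0.64 ± 0.13 (limma, adjusted p = 0.0267 and 0.00287). The median of all genes there was 0.11. For these genes the mean of the guides thus does not describe each guide alone. Against sgAAVS1 that mean was -0.33 ± 0.11 for ULBP1 (limma, adjusted p = 0.186). Its relative ULBP2 had -0.27 ± 0.25 against sgAAVS1 (limma, adjusted p = 0.793) and was lower than in untransduced cells by -0.94 ± 0.25 (limma, adjusted p = 0.0403), on 17 to 40 reads with the IRF2 guides, against 40 and 56 in untransduced cells.

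**Figure D5:**
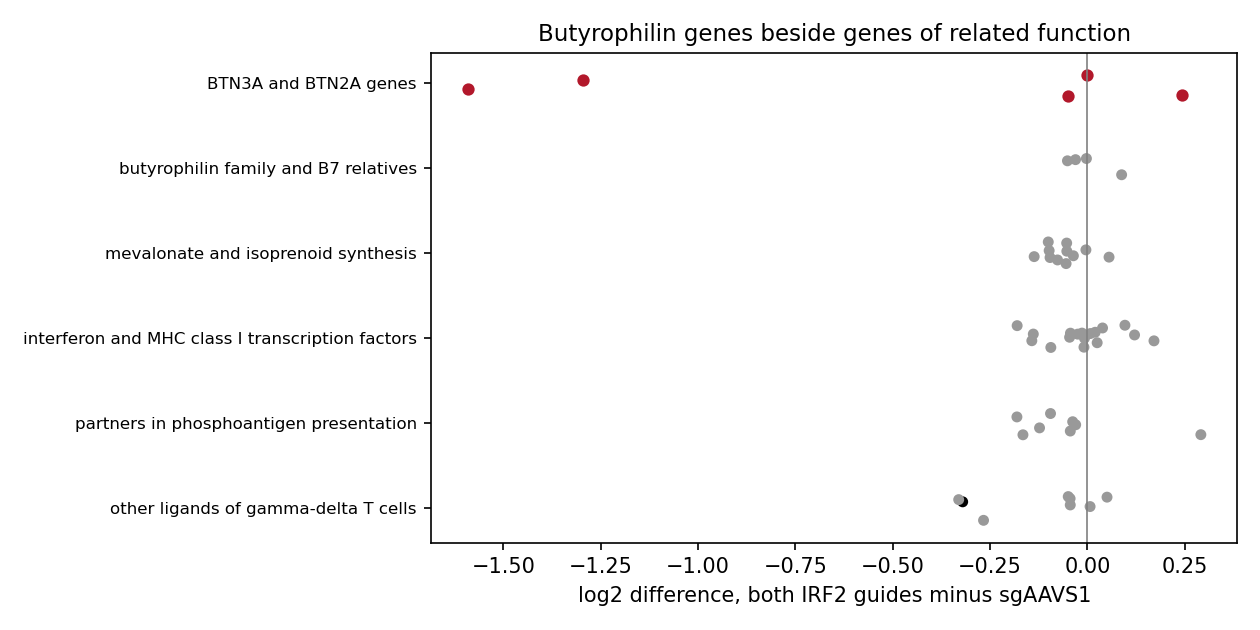
Log2 difference, both IRF2 guides minus sgAAVS1, of the 5 butyrophilin genes (red) and of the tested genes of 5 lists (grey; black where the limma adjusted p was under 0.05), 1 point a gene with vertical scatter for legibility only. MR1 at -0.32 is the black point, and BTN3A1 and BTN3A2 lie at -1.29 and -1.59.

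Similarity of pattern was measured as Pearson's r over the 8 libraries, among 12495 genes with a mean log2 value of at least 2. BTN3A1 and BTN3A2 followed each other (r = 0.949), while BTN3A3 was unlike BTN3A1 (r = 0.206) and BTN3A2 (r = 0.0482), and its highest r within the family was with BTN2A2 (0.74). The genes closest to BTN3A1 were PARP12, a mono-ADP-ribosyltransferase (r = 0.990), IRF2 (0.988) and DTX3L, a ubiquitin ligase on the strand opposite PARP9 (0.985). Those closest to BTN3A2 were TAP2, a subunit of the MHC class I peptide transporter (r = 0.987), the antiviral replication factor FAM111A (0.982) and the peptide-trimming aminopeptidase ERAP1 (0.981), which lies opposite CAST. Their differences from sgAAVS1 ran from -4.51 for IRF2 to -1.38 for PARP12. BTN3A3 was closest to PHC3, KLHL28 and CRYM (r = 0.991, 0.980 and 0.972), whose differences from sgAAVS1 were 0.07, 0.06 and 0.25.

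The BTN2A genes had no such close companions. BTN2A1 was nearest to SUSD3, HSD11B1L and TM2D3 (r = 0.927, 0.923 and 0.916), and BTN2A2 to ZBED6, AF127936.7 and ACAD11 (r = 0.934, 0.929 and 0.925). The mean of the 5 centred profiles, to which BTN3A1 and BTN3A2 with their wide ranges contribute most, was closest to IRF2 and the antiviral synthetase gene OAS3 (r = 0.988 each). Others among the 10 closest genes were ZNF548, PARP9, RBM43, ZNF304, DTX3L, IL15RA and C19orf66, down to r = 0.961. Of the 10 genes 4 were also among the closest 10 by Spearman's rho. Of the genes named for single members, only PARP12, HSD11B1L and ACAD11 were also among the closest 3 by rho. The 8 points of each r share their scaling and come from 4 groups, so the values are descriptive.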

How the data were processed

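RNA was depleted of ribosomal RNA and made into directional libraries, per the labels' protocols, and cutadapt, Bowtie2 and hg38 are named in the submitters' processing notes. The counting tool, the strand setting and the annotation release behind the table are unknown from these sources. Values were deposited on a log2 scale, as each gene's reads over a library factor, which the values themselves show: 100% of them were whole reads within 0.01 read, with genes without reads at 0.9 read. The authors kept replicates apart. From these values whole reads were recovered for depth, shares and the voom alternatives.

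The 5 genes and the gene lists were chosen with earlier results of these data known. Group means were fitted over all 8 libraries with limma 3.58.1 (R 4.3.3, mean-variance trend) on the 14665 genes with a mean log2 value of at least 0. Tests were two-sided, adjusted by Benjamini-Hochberg over all genes and called under 0.05. The script was tested on simulated data. Named besides the 5 genes were, per list, called genes and up to 4 with the lowest p, and by likeness the 10 closest to the mean profile and 3 to each gene. Some genes under this rule are not reported here. Exact intervals are at 95%. Count models (edgeR, DESeq2) were not run because the deposited unit is log2. Alternatives were other filters, scalings, tests, controls and leaving out each library. Exonic lengths come from GENCODE release 29, whose spans were the deposited ones. Python 3.11.15, pandas 2.3.3, scipy 1.17.1 and matplotlib 3.10.9 did the rest.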

Additional observations from a re-analysis of the deposited data

How the results depend on the processing

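The direction of BTN3A1 and BTN3A2 against controls was the same under every alternative run. BTN3A2 moved with the control, to -1.13 against untransduced cells and -1.36 against all 4 controls, and ran from -1.76 to -1.42 without 1 library. BTN3A3 was -0.38 against untransduced cells, -0.0695 against all 4 and -0.0428 to 0.53 without 1 library, and BTN2A2 was -0.12 and -0.058 against these controls. The cause was not tested. For sg1-IRF2 minus sg2-IRF2, BTN2A2 passed the threshold with quantile normalization (-0.27), medians aligned (-0.27), voom with TMM or median-ratio factors (-0.27 each), only those groups fitted (-0.16), and without sgAAVS1 replicate 1 or 2 (adjusted p = 0.0284 and 0.0283, limma), with -0.20 to -0.12 without 1 library. For sgAAVS1 minus untransduced, BTN3A2 passed it without a filter (0.46), with voom (0.46 with either factor), with only those groups (0.46) and without sgAAVS1 replicate 1 (0.64, adjusted p = 0.0336, limma), with 0.29 to 0.64 without 1 library. BTN3A3 passed it with a mean of at least 2, no filter or only those groups (-0.62 each), with quantile normalization (-0.65) and without sgAAVS1 replicate 2 (-0.91, adjusted p = 0.00316, limma), with -0.91 to -0.34 without 1 library.

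Neighbour genes called lower were 0 without the trend, against untransduced cells and against all 4 controls (0 to 1 without 1 library), and 1 was called higher against untransduced cells. Other gamma-delta ligands called lower were 2 with no filter and 0 without the trend or against all 4 controls (0 to 1 without 1 library). Transcription factors called higher were 1 with quantile normalization, medians aligned, untransduced or all 4 controls (0 to 1 without 1 library), and called lower 0 to 2 without 1 library. Mevalonate genes called lower were 0 to 1 without 1 library.

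All genes called were 233 in the main comparison and 60 to 636 over the alternatives (60 without the trend, 636 with no filter), 1952 and 2 to 4033 between the guides, and 697 and 11 to 1456 between the controls. Replicate numbers were not treated as pairs, since the labels do not tie them and same-numbered libraries correlated at -0.0794 to 0.216 in their deviations; with the number as a replicate block BTN3A1 stayed at -1.29 and BTN3A2 at -1.59, no butyrophilin gene changed its call, and 136 genes were lower and 65 higher. With no library of a butyrophilin gene at 0 reads, the alternative for such values gives no result. Reads of 31 to 171 a library limit the BTN3A values.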
